A study of Mus musculus with 12 samples.

Results

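Interferon beta (IFN), a type I interferon, was compared with no interferon after 21 days of bone differentiation in MC3T3-E1 cells, an established line of mouse preosteoblasts that lay down a collagen matrix and can mineralize it. The members were chosen by their labels. They are the 2 libraries labelled IFN and the 2 labelled control at day 21, which make 4 of the 12 libraries of the series. All 4 came from cells labelled WT that had been put into bone differentiation from 2 days after confluence, called day 0. The IFN libraries had, per the labels, also received IFN at 50 mg/L from the start of differentiation, while the control libraries had none. The remaining 8 libraries are the same 2 arms at day 0 and day 14, with 2 libraries in each group. The labels name 1 cell line and do not say whether replicates were separate cultures, so the p-values below measure the spread between these libraries, which may be technical. The title of the series places Sox9, a transcription factor of cartilage and early skeletal cells, among the targets of type I interferon.

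Type I interferon binds a receptor made of Ifnar1 and Ifnar2, whose kinases activate transcription factors such as Stat2. With Irf9, Stat2 forms part of a complex that binds interferon-stimulated response elements before many antiviral genes, among them Irf7, which in turn amplifies the response. Osteoblasts, the bone-forming cells, secrete type I collagen and a set of matrix proteins, and their endoplasmic reticulum answers an overload of unfolded protein by inducing chaperones such as Hspa5.

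Library totals ran from 29772425 to 38908453 counts over the series, and at day 21 they were 33994237 and 33411108 in control and 34605553 and 34863250 with IFN. Counts are given as CPM, counts scaled to a common library size with trimmed-mean (TMM) factors. Of 55291 genes in the table, 17289 had enough counts to be tested. Of 9 osteoblast markers, 8 exceeded 1 CPM in all 4 libraries, and Bglap, which encodes osteocalcin, was at 0.292 CPM in control replicate 1. The leukocyte marker Ptprc had at most 2 counts in any of the 4 libraries. Of 6 chondrocyte markers 3 were under 1 CPM in all 4 libraries, among them Acan with at most 5 counts. The chondrocyte markers Sox9 and Col2a1 exceeded 1 CPM in all 4. Col2a1 had 1612 and 508 counts in control and 486 and 680 counts with IFN. Since these are bulk samples, fewer cells of a type and less RNA per cell cannot be told apart.

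The 2 control libraries differed far more from each other than the 2 IFN libraries did. Among the 6277 genes whose log2 CPM averaged 5 or more, 969 (15.4%) differed by more than 1 on the log2 scale between the control libraries, and 2 (0.0319%) between the IFN libraries. Genes of protein folding stress were among those that differed. The summed level of 30 unfolded protein response genes was 76500 CPM in control replicate 2, against 6310 to 10600 CPM in the other 11 libraries of the series. The summed level of 29 heat shock and immediate early genes was likewise 47300 CPM there and 7070 to 10300 CPM elsewhere. Control replicate 1 lay inside the range of the other libraries for both lists. Calls were therefore also made against each control library apart, and it is said below which held.

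**Figure D1:**
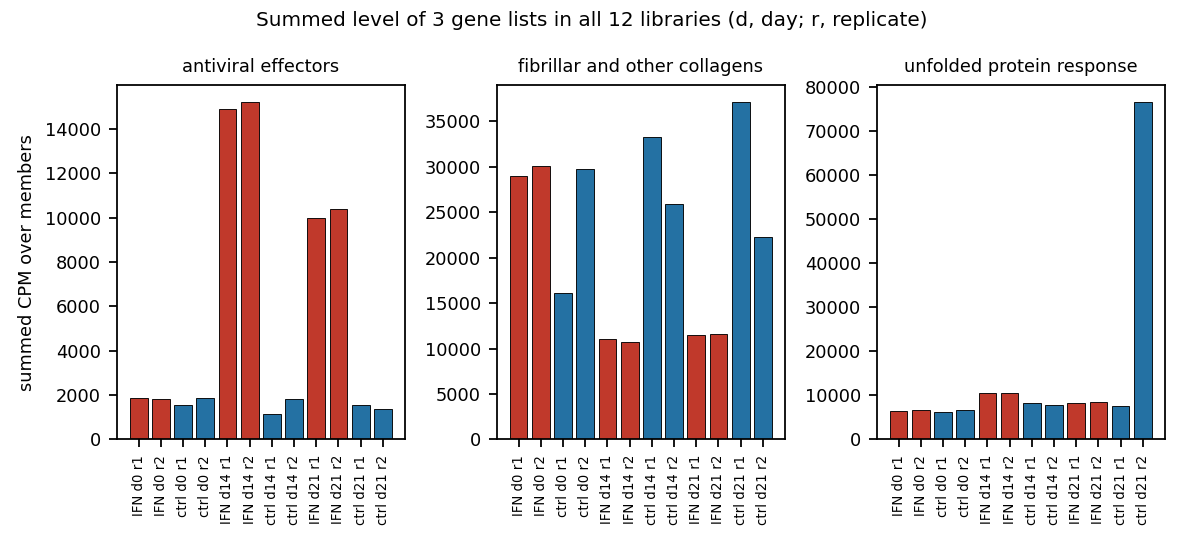
Bars give the summed CPM of the antiviral effector, collagen and unfolded protein response lists in each of the 12 libraries (red, IFN arm; blue, control arm). The antiviral sum was 10000 and 10400 CPM with IFN at day 21 and 1570 and 1390 CPM in control, and the unfolded protein response sum stands at 76500 CPM in control replicate 2 alone.

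Across all genes, IFN at day 21 raised 145 of 17289 genes (0.839%) and lowered 27 (0.156%). A gene was called where the p of edgeR's quasi-likelihood test, adjusted over the 17289 genes by Benjamini and Hochberg, was under 0.05, and such calls are what "rose", "fell" and "called" mean here. All 172 called genes (0.995%) had no overlap between the IFN and control libraries, but so had many others: 3620 genes (20.9%) had both IFN libraries above both controls and 3207 (18.5%) had both below. Of the 145 genes that rose, 73 belong to 5 lists of interferon genes described below, which hold 133 tested genes. None of the 27 that fell do.

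When IFN was set against each control library apart, 179 genes (1.04%) were called against control replicate 1, of which 127 (0.735%) were higher and 52 (0.301%) lower with IFN. Against control replicate 2, 3900 genes (22.6%) were called, of which 2052 (11.9%) were higher and 1848 (10.7%) lower. Only 98 genes (0.567%) were higher and 17 (0.0983%) lower in both comparisons, and a further 17 (0.0983%) passed in both with opposite signs. Of the 145 genes that rose, 85 were higher against each control library, 59 passed against control replicate 2 only and 1 (Ifi44, named for this after its values were seen) against neither. Of the 27 that fell, 13 were lower against each control library and 14 passed against control replicate 2 only. In a single-control comparison the lone control is assumed to vary like the libraries of the other groups. The adjusted p also depends on how many genes pass in the same comparison. A gene can therefore pass against control replicate 2 only although its fold changes are alike. Usp18 had log2 fold changes of 4.87 ± 1.21 against control replicate 1 and 4.94 ± 1.21 against control replicate 2. For C4b they were 3.14 ± 0.75 and 3.08 ± 0.74. For Ifit3 they were further apart, 4.81 and 5.85.

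**Figure D2:**
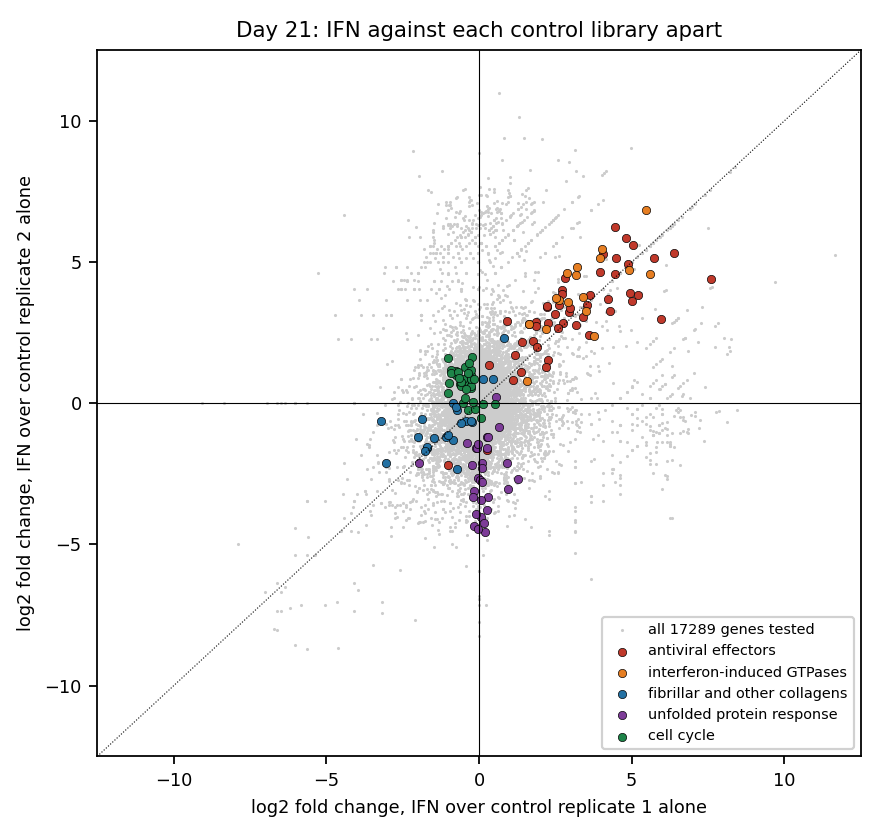
Each point is 1 of the 17289 genes, with its log2 fold change of IFN over control replicate 1 alone on the x axis and over control replicate 2 alone on the y axis. The medians were 2.81 on the x axis and 3.27 on the y axis for antiviral effectors, and 3.21 and 3.77 for interferon-induced GTPases. Both lists thus have medians above the dotted line of equal values. For the GTPases the median log2 difference of control replicate 2 from control replicate 1 was -1.04. Unfolded protein response genes lie near 0 on the x axis and as low as -4.55 on the y axis.

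The antiviral effectors, proteins that block steps of virus replication inside the cell, gave the broadest response. Of 49 tested members 41 rose and none fell, with a median log2 fold change of 3.08, against -0.01 over all genes tested. The log2 fold changes ran from -1.71 to 5.81, with 47 above 0 and 2 below. The median was 2.81 against control replicate 1 and 3.27 against control replicate 2, and 27 of the 49 were higher against each. Rsad2, which encodes viperin, an enzyme that makes a chain-terminating nucleotide, had 3.09 and 4.67 CPM in control and 172 and 158 CPM with IFN. Its log2 fold change was 5.42 ± 0.59 (SE, n = 2 per group; adjusted p = 0.00209 by edgeR), a 42.7-fold difference. Slfn4, a schlafen family member, went from 0.175 and 0.370 CPM to 16.9 and 13.4 CPM. Both genes stayed past the threshold against each control library.

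Phf11d lay at 10.4 and 9.40 CPM in control and at 219 and 234 CPM with IFN (log2 4.52 ± 0.47, adjusted p = 0.00152). Trim25, a ubiquitin ligase that activates the RNA sensor encoded by Ddx58, had a smaller change with little spread, from 98.4 and 93.2 CPM to 380.3 and 366 CPM (log2 1.96 ± 0.16, adjusted p = 0.0005). Sp100, a nuclear body protein, rose by 3.19 ± 0.29 and Xaf1, a promoter of cell death, by 3.08 ± 0.28 on the log2 scale. Ifitm1, a membrane protein that hinders virus entry, had 28.0 and 18.7 CPM in control and 125 and 143 CPM with IFN. Its log2 fold change was 2.52 ± 0.24 (adjusted p = 0.00096). Phf11d, Trim25, Sp100, Xaf1 and Ifitm1 were all higher against each control library apart.

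Ifit3 and Ifit3b, of a family that binds foreign RNA, rose but did not pass against control replicate 1, while Ifit2, named after its values were seen, passed against each control library (adjusted p = 0.00292 and 5.70e-05). Ifit3 had 18.0 and 8.74 CPM in control and 493 and 525 CPM with IFN, a log2 fold change of 5.25 ± 0.67 (adjusted p = 0.00407). Against control replicate 1 alone it was 4.81 (adjusted p = 0.074), and against control replicate 2 alone 5.85 (adjusted p = 0.00559). The near copy Ifit3b behaved alike, with log2 5.04 (adjusted p = 0.117) and 5.60 (adjusted p = 0.0125). Cmpk2, Ddx60 and Usp18, the protease that removes Isg15 from proteins, also rose in the pooled comparison and passed against control replicate 2 only. For Usp18 the control libraries were close, at 7.70 and 7.33 CPM, against 226 and 228 CPM with IFN. Reads of near copies (Ifit3 and Ifit3b, Tgtp1 and Tgtp2, the Ifi200 and Phf11 families, Hspa1a and Hspa1b) may be shared between them, so their single values are uncertain.

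The interferon-induced GTPases, which attack the membranes around intracellular microbes, rose in 14 of 17 cases with a median log2 fold change of 3.50. All 17 had both IFN libraries above both controls, and 4 were higher against each control library apart (Tgtp1, Gbp3, Irgm1 and Igtp). Across all genes tested, both IFN libraries lay above both controls in 20.9%. Tgtp1 was nearly silent in control at 0.963 and 0.370 CPM and reached 41.7 and 44.4 CPM with IFN. Its log2 fold change was 5.97 ± 0.76 (adjusted p = 0.00407), with 5.47 (adjusted p = 0.0497) against control replicate 1 alone. Gbp3, a guanylate-binding protein, went from 17.6 and 6.41 CPM to 284 and 289 CPM. Irgm1, a regulator of the other immunity-related GTPases, went from 50.3 and 24.4 CPM to 309.6 and 317 CPM (log2 3.07 ± 0.39, adjusted p = 0.00407).

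Because many of these genes rose together, their promoters were searched for the core letters of an interferon-stimulated response element in both orientations (GAAA, any 2 bases, GAAA; or TTTC, any 2 bases, TTTC) in the 250 bases before the gene's start (RefSeq, GRCm38.p6). A match was present in 43 of 108 genes that rose and have a promoter in the table (39.8%), in 0 of 21 that fell and in 371 of 11638 tested genes (3.19%). It was present in 9 of 10 interferon-induced GTPases (90.0%) and in 15 of 40 antiviral effectors (37.5%). Among genes higher against each control library apart it was present in 19 of 78 (24.4%). Matches on either strand may share bases with each other or with other motifs, and a match is a description of letters, not a measured binding site. The windows below are shown because they precede genes that rose and whose values are given here, with the matched letters in capitals and each read 5′ to 3′ along the gene's strand.
Tgtp1: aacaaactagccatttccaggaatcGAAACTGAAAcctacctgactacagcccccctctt
Gbp3: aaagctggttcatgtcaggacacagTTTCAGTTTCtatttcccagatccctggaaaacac
Rsad2: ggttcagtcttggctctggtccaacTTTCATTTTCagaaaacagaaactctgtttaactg
Ifit3: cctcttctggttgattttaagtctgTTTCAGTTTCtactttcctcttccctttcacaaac
Stat2: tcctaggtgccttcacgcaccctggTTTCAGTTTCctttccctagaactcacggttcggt
B2m: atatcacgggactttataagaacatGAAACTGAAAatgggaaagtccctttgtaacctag
Mndal: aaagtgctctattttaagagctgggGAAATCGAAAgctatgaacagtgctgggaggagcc

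The Tgtp1 window lies at chr11:48992289-48992348 on the minus strand, the match starting 77 bases before the gene's start. The others are at chr3:142559974-142560033 (Gbp3, plus strand, 45 bases before the start), chr12:26456538-26456597 (Rsad2, minus strand, 120 bases), chr19:34583382-34583441 (Ifit3, plus strand, 122 bases), chr10:128270251-128270310 (Stat2, plus strand, 222 bases), chr2:122147523-122147582 (B2m, plus strand, 139 bases) and chr1:173880189-173880248 (Mndal, minus strand, 36 bases). Gbp3, Ifit3 and Mndal each hold a second match, which overlaps the first in Gbp3 and lies before another listed start in Mndal.

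The nucleic acid sensors, which detect viral RNA or misplaced DNA, rose in 7 of 21 cases with a median log2 fold change of 1.50, and none fell. Zbp1, a sensor of left-handed nucleic acid that can trigger necroptosis, had 8.05 and 4.11 CPM in control and 140.0 and 148 CPM with IFN (log2 4.56 ± 0.49, adjusted p = 0.00202). Dhx58, a regulator of the RNA sensors, went from 5.72 and 5.37 CPM to 51.8 and 63.1 CPM. Ifih1 and Ddx58, which encode the RNA sensors MDA5 and RIG-I, rose by 3.31 ± 0.44 and 2.39 ± 0.35 on the log2 scale. Zbp1, Dhx58, Ifih1 and Ddx58 were each higher against each control library apart. Mndal, a member of the Ifi200 family of DNA sensors that the list does not hold, lay at 40.0 and 38.7 CPM in control and 431 and 406 CPM with IFN. Its log2 fold change of 3.41 ± 0.22 (adjusted p = 0.000202) was 3.38 and 3.42 against the 2 control libraries apart.

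Genes outside the lists rose as well. Of the 145 genes, 67 belong to none of the 34 lists, as do 50 of the 98 that were higher against each control library. Plac8, a small cysteine-rich protein named after its values were seen, had 0 and 8 counts in control and 401 and 410 counts with IFN. Its adjusted p was 0.0173. Ifit1bl1, an Ifit1-like gene, went from 0.496 and 0.666 CPM to 11.5 and 11.4 CPM (log2 4.31 ± 0.58, adjusted p = 0.0054). Both were higher against each control library.

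Among the receptors, kinases and transcription factors of the pathway, 4 of 23 tested genes rose and none fell. Irf7, Irf9 and Stat2 were among them, and each of the 4 was also higher against each control library apart. Irf7 (chr7:141262706-141266481) had 13.7 and 10.7 CPM in control and 504 and 546 CPM with IFN, a 43.0-fold difference (log2 5.43 ± 0.38, adjusted p = 0.000202). Stat2 went from 80.5 and 62.6 CPM to 458 and 413 CPM, and Irf9 from 22.7 and 19.0 CPM to 88.7 and 90.6 CPM. In these 3 genes both IFN libraries lay well above both controls.

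The receptor genes themselves gave no call. Ifnar1 lay at 86.8 and 49.5 CPM in control and 60.6 and 54.1 CPM with IFN, so the groups overlapped (log2 -0.25 ± 0.23, adjusted p = 0.671). Ifnar2 lay at 34.8 and 24.8 CPM in control and 34.8 and 34.0 CPM with IFN (log2 0.21 ± 0.19, adjusted p = 0.67). The sign of both depended on the control library used, -0.61 against replicate 1 and 0.20 against replicate 2 for Ifnar1. The kinase gene Jak1 had a log2 fold change of -0.29 ± 0.18 (adjusted p = 0.519).

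Genes of MHC class I and peptide loading, which display cell-made peptides to T cells, rose in 7 of 24 cases with a median log2 fold change of 1.41. In 20 of the 24 both IFN libraries lay above both controls, against 20.9% of all genes tested. B2m, the light chain shared by class I molecules, had 928 and 1052 CPM in control and 3203 and 3330.4 CPM with IFN (log2 1.72 ± 0.20, adjusted p = 0.00319). H2-D1, a classical heavy chain, went from 757 and 875 CPM to 2925 and 2933 CPM. Tap1, a subunit of the peptide pump, went from 70.7 and 45.4 CPM to 218 and 224 CPM. These 3 and H2-T22 (log2 2.18 ± 0.21) were higher against each control library apart. The list also holds the chaperone genes Canx, Calr and Pdia3, and these 3 were lower with IFN against control replicate 2 and did not pass against control replicate 1.

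**Figure D3:**
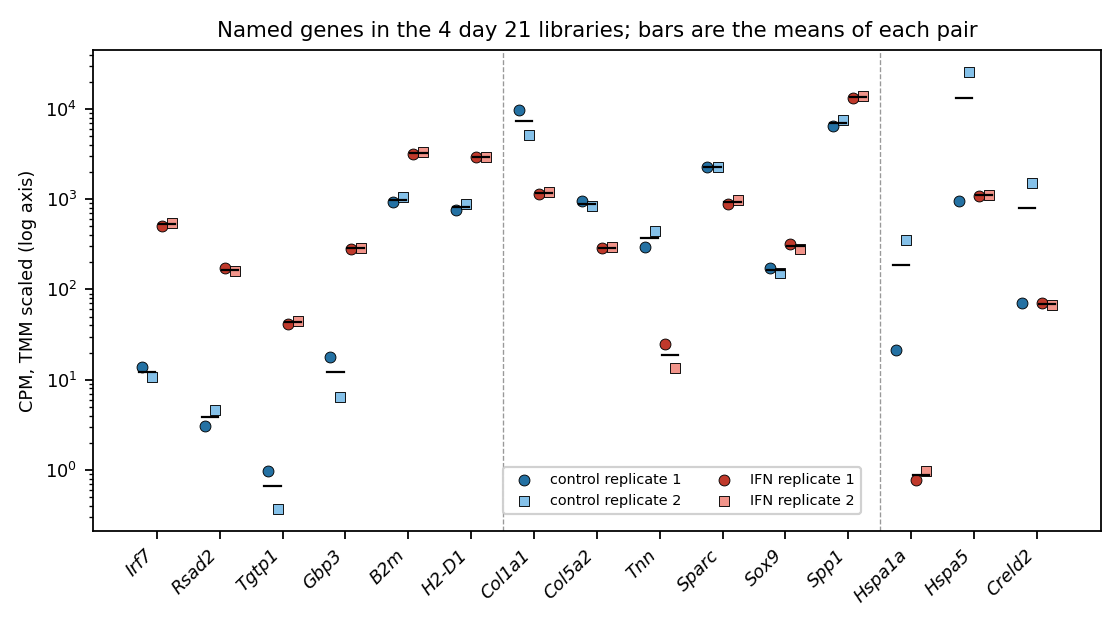
Points give the CPM on a log axis of 15 genes in the 4 day 21 libraries and bars the mean of each pair. The 6 interferon genes on the left are higher in both IFN libraries than in either control, Col1a1, Col5a2, Tnn and Sparc are lower, and Hspa5 and Creld2 separate control replicate 2 from the other 3 libraries.

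Chemokines and inflammatory genes did not move as a group. Of 28 tested members 2 rose and none fell, and the median log2 fold change was -0.07. Il15, a cytokine that sustains natural killer cells, went from 1.72 and 0.778 CPM to 7.69 and 8.19 CPM (log2 2.65 ± 0.39, adjusted p = 0.00856), and was higher against each control library. C4b, a complement component, went from 18.2 and 18.8 CPM to 169 and 153 CPM (log2 3.12 ± 0.52, adjusted p = 0.0171), but did not pass against control replicate 1 alone (adjusted p = 0.139). In contrast, 4 members (Cxcl5, Lcn2, Saa3 and Hp), of which the last 3 were chosen after their values were seen, were lower with IFN against control replicate 1 only. Lcn2, an iron-scavenging acute-phase protein, had 340.2 and 77.4 CPM in control and 90.9 and 85.6 CPM with IFN. For Cxcl5, a neutrophil chemokine, the control values were 272 and 19.2 CPM and the IFN values 33.3 and 24.1 CPM. For both genes control replicate 1 stood above the other 3 libraries, which lay close together. Of 24 cell death genes 1 rose, the death ligand Tnfsf10, from 0.233 and 0.222 CPM to 5.64 and 5.59 CPM (log2 4.60 ± 0.80, adjusted p = 0.0232); against control replicate 1 alone its adjusted p was 0.12.

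Some collagen genes fell with IFN. Of 23 tested collagens 3 fell (Col1a1, Col5a1 and Col5a2) and none rose, and the median log2 fold change was -1.07. In 17 of the 23 both IFN libraries lay below both controls, against 18.5% of all genes tested. In 3 others (Col11a2, Col14a1 and Col15a1, named after their values were seen) both IFN libraries lay above both controls, without a call. The list median was -0.85 against control replicate 1 and -0.65 against control replicate 2, and 5 members were lower against each (the 3 above, Col1a2 and, named after its values were seen, Col12a1). The summed collagen level was 37100 and 22300 CPM in control and 11500 and 11600 CPM with IFN. Here the IFN libraries were nearly equal, and the 2 controls were apart.

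Col1a1 (chr11:94936224-94953042), the main chain of type I collagen, had 9729 and 5107 CPM in control and 1147 and 1209.5 CPM with IFN. It fell by 2.65 ± 0.43 on the log2 scale (adjusted p = 0.0157), a 6.30-fold difference, and the log2 fold change was -3.06 against control replicate 1 and -2.13 against control replicate 2. Its partner chain Col1a2 had 12618 and 7137 CPM in control and 3116 and 3215 CPM with IFN. With both controls pooled it missed the threshold (log2 -1.64 ± 0.35, adjusted p = 0.0603), although it passed against each control apart. The fibril-initiating chains Col5a1 and Col5a2 had closely matched controls. Col5a2 had 951 and 836 CPM in control and 289 and 294 CPM with IFN (log2 -1.62 ± 0.22, adjusted p = 0.00523). Col3a1, chosen after its values were seen, had 1730.4 and 289 CPM in control and 201 and 176 CPM with IFN, and its log2 fold change was -3.21 (adjusted p = 0.0133) against control replicate 1 and -0.63 (adjusted p = 0.325) against control replicate 2.

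Other matrix genes also fell. Tnn, which encodes tenascin-W, a matricellular protein of bone and its surrounding layers, had 293 and 443 CPM in control and 24.6 and 13.3 CPM with IFN. It fell by 4.28 ± 0.34 on the log2 scale (adjusted p = 0.000351), and was lower against each control library. Sparc, or osteonectin, a collagen-binding protein, had almost the same level in both controls, 2259 and 2248 CPM, and 890.0 and 988 CPM with IFN (log2 -1.26 ± 0.17, adjusted p = 0.00602). Fmod, a proteoglycan of collagen fibrils, fell by 5.81 ± 1.01, but its controls were 39.2 and 244 CPM against 3.84 and 1.18 CPM with IFN, and it did not pass against control replicate 1 (adjusted p = 0.0979). Of 31 genes of collagen processing and matrix remodelling 1 fell, Pcolce2, an enhancer of procollagen processing (log2 -1.25 ± 0.25, adjusted p = 0.0434), and it did not pass against control replicate 1 alone (adjusted p = 0.0919). Tnn, Sparc and Fmod were the 3 of 26 matricellular and proteoglycan genes that fell.

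Further genes that fell against each control library apart lie outside the matrix lists. Ass1, the enzyme that makes argininosuccinate in the urea and nitric oxide cycles, had 123 and 109.6 CPM in control and 40.3 and 48.6 CPM with IFN (log2 -1.39 ± 0.25, adjusted p = 0.0279). Olfml3, a secreted olfactomedin family protein, went from 78.2 and 89.0 CPM to 35.0 and 36.1 CPM. Among the 10 genes that fell most at a mean log2 CPM of 1 or more, Clu, Angpt4, Slc2a6, Cacna1c and Slc9a3r1 passed against control replicate 2 only. Clu, which encodes an extracellular chaperone, shows the pattern, with 32.0 CPM in control replicate 1, 164 CPM in control replicate 2 and 10.5 and 7.44 CPM with IFN. These 5 were taken from called genes without overlap, so the IFN libraries lay below both controls by that choice. In each of the 5 control replicate 2 was the higher control, which a pass against it alone favours.

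Genes that mark the osteoblast lineage and its matrix showed no uniform change. Of 28 tested members 3 fell (Col1a1, Sparc and Tnn) and none rose, and the median log2 fold change was -0.56, with 0.19 against control replicate 1 and -0.76 against control replicate 2. Runx2, the master regulator of the lineage, lay at 71.9 and 93.1 CPM in control and 110.1 and 111 CPM with IFN (log2 0.42 ± 0.21, adjusted p = 0.438). Sp7, or osterix, acting downstream of Runx2, lay at 15.7 and 8.85 CPM in control and 17.9 and 17.3 CPM with IFN (log2 0.51 ± 0.36, adjusted p = 0.574). Neither passed against either control library. Alpl, the alkaline phosphatase that frees phosphate for mineral, had 8.96 and 30.0 CPM in control and 11.1 and 10.1 CPM with IFN. Bglap had 0.292 and 6.89 CPM in control and 1.34 and 1.41 CPM with IFN. For both, the IFN libraries lay between the controls, so the log2 fold change was 0.23 against replicate 1 and -1.52 against replicate 2 for Alpl, and 2.21 and -2.34 for Bglap.

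Sox9 had 173 and 152 CPM in control and 319 and 283 CPM with IFN. Both IFN libraries lay above both controls, as for 20.9% of all genes. The log2 fold change was 0.89 ± 0.22 (adjusted p = 0.133), 0.79 against control replicate 1 (adjusted p = 0.243) and 0.97 against control replicate 2 (adjusted p = 0.027). Of the 14 tested chondrocyte and SOX genes none was called.

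Mineralization genes gave no call among 14 tested, with a median log2 fold change of 0.39. In 7 of the 14 both IFN libraries lay above both controls, against 20.9% of all genes tested. In 2 both lay below, against 18.5%. Spp1, or osteopontin, an abundant phosphoprotein that binds mineral, had 6479 and 7483 CPM in control and 13221 and 14059 CPM with IFN (log2 0.97 ± 0.29, adjusted p = 0.199). Dmp1, a matrix protein of maturing osteoblasts and osteocytes, had 56.1 and 6.11 CPM in control and 451 and 465 CPM with IFN (log2 3.87 ± 1.12, adjusted p = 0.192). Mgp, an inhibitor of calcification, had 365 and 611 CPM in control and 967 and 995 CPM with IFN (log2 1.01 ± 0.48, adjusted p = 0.403). In all 3 genes the groups did not overlap, but the test did not pass with both controls, and only Dmp1 passed against control replicate 2 alone (adjusted p = 0.0373).

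Genes of heat shock and immediate early response were called in 2 of 29 cases, and both were lower with IFN. They are the paired Hsp70 genes Hspa1a and Hspa1b, which encode the stress-induced cytosolic chaperone. Hspa1a had 21.2 and 355 CPM in control and 0.769 and 0.980 CPM with IFN (log2 -7.74 ± 1.17, adjusted p = 0.0101). Hspa1b had 135 and 6479 CPM in control and 32.5 and 32.0 CPM with IFN (log2 -6.68 ± 1.30, adjusted p = 0.0432). Both IFN libraries were therefore below control replicate 1 as well, with log2 fold changes of -4.61 (adjusted p = 0.00292) and -2.08 (adjusted p = 0.000937) against it alone. At day 14 the log2 fold changes were -0.96 and -0.09, and neither passed.

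Unfolded protein response genes differed mainly between the 2 control libraries. Of 30 unfolded protein response genes none was called with both controls. Their median log2 fold change was 0.08 against control replicate 1 and -2.66 against control replicate 2. Over all genes tested these medians were -0.01 and 0.04. Hspa5, or BiP, the main chaperone of the endoplasmic reticulum, had 959 and 25678 CPM in control and 1095 and 1113 CPM with IFN. Creld2, a secreted product of this response, had 70.7 and 1517 CPM in control and 70.5 and 67.9 CPM with IFN. Hsp90b1, Calr and Pdia3, also lumenal folding factors, likewise had their highest level in control replicate 2. Hmox1, an enzyme of oxidative defence, had 277 and 8577 CPM in control and 546 and 556 CPM with IFN. Atf3, a stress-induced transcription factor, had 22.1 and 847 CPM in control and 42.1 and 42.2 CPM with IFN.

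The letters of the endoplasmic reticulum stress element (CCAAT, any 9 bases, CCACG, on either strand) were found in 9 of 26 unfolded protein response promoters (34.6%) and in 19 of 11638 tested genes (0.163%). None of the promoters of the genes that rose or fell with IFN held them. The windows of Hspa5 (chr2:34772000-34772068, plus strand), Creld2 (chr15:88819495-88819563, plus strand) and Calr (chr8:84847050-84847118, minus strand) are given because these genes were much higher in control replicate 2 than in replicate 1, again with the matched letters in capitals.
Hspa5: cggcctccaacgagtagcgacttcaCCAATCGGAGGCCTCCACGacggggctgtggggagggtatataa
Creld2: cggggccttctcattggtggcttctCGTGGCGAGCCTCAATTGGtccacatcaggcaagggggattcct
Calr: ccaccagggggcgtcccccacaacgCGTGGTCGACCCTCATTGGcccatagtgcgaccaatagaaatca

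Some genes lay between the 2 controls. In 17 genes, all but Ptgs2 chosen after their values were seen, IFN was called higher than one control library and lower than the other. Ptgs2, the inducible cyclooxygenase, had 250.1 and 2174 CPM in control and 861 and 751 CPM with IFN. Gdf15, a stress-induced cytokine, had 26.8 and 288 CPM in control and 56.0 and 57.6 CPM with IFN. Nr4a1, an immediate early nuclear receptor, had 14.4 and 97.9 CPM in control and 51.4 and 47.5 CPM with IFN. In the opposite order, Mmp3, a matrix metalloproteinase, had 15.9 and 1.11 CPM in control and 3.99 and 4.30 CPM with IFN. The immediate early gene Fos had 3.65 and 198 CPM in control and 116 and 123 CPM with IFN and passed against neither.

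Cell cycle genes also took their sign from the control library. None of 34 tested members was called with both controls. The median log2 fold change was -0.44 against control replicate 1 and 0.80 against control replicate 2. In 31 of the 34 the 2 signs differed, as they did in 8150 of the 17289 genes tested. Top2a, the topoisomerase of dividing cells, had 239 and 63.1 CPM in control and 114 and 169 CPM with IFN. Pcna, the replication clamp, did not vary in this way, with 196 and 208 CPM in control and 174 and 189 CPM with IFN.

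**Figure D4:**
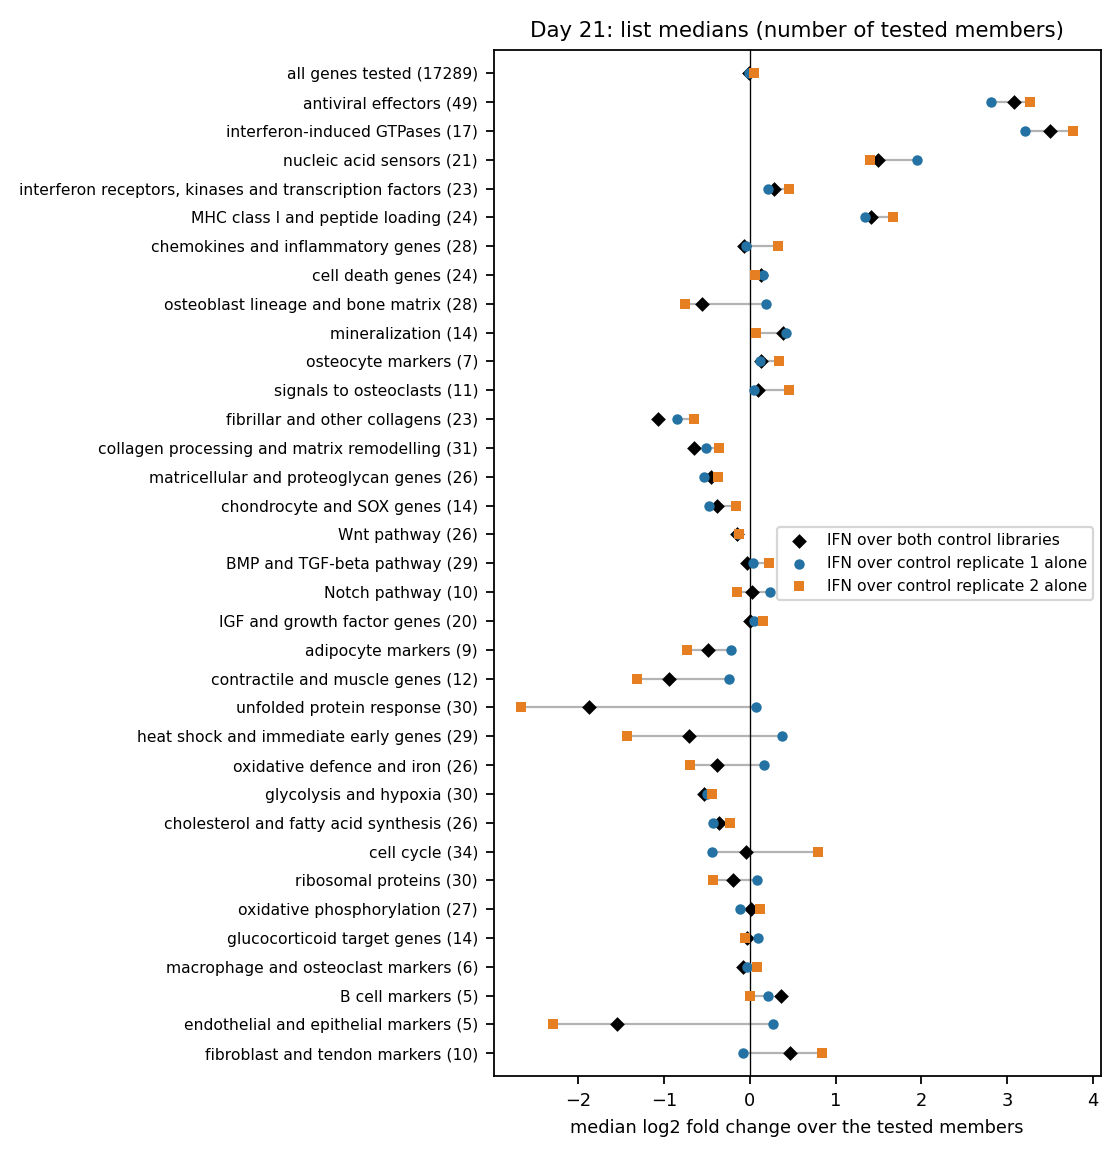
Symbols give the median log2 fold change of the tested members of each of 34 lists and of all genes, for IFN over both control libraries (diamonds), over control replicate 1 alone (circles) and over control replicate 2 alone (squares). The antiviral, GTPase, sensor and MHC class I medians stay above 1 and the collagen median below 0 with either control, while the unfolded protein response median moves from 0.08 to -2.66 and the cell cycle median from -0.44 to 0.80.

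Signalling and metabolic lists were nearly without calls. In the BMP and TGF-beta pathway 1 of 29 rose, Id1, a direct target of BMP signalling, from 49.8 and 37.2 CPM to 112 and 119.6 CPM (log2 1.41 ± 0.21, adjusted p = 0.00959), and it was higher against each control library. Of 12 contractile and muscle genes 1 fell, the actin nucleator Lmod1 (log2 -1.12 ± 0.22, adjusted p = 0.0461), which did not pass against control replicate 1 alone (adjusted p = 0.094). None was called among 26 Wnt pathway genes, 10 Notch pathway genes, 20 growth factor genes, 30 genes of glycolysis and hypoxia, 26 of cholesterol and fatty acid synthesis, 30 ribosomal protein genes, 27 of oxidative phosphorylation, 26 of oxidative defence, 14 glucocorticoid targets, 11 signals to osteoclasts or 7 osteocyte markers. Glycolysis and hypoxia genes had medians of -0.49 and -0.44 against the 2 controls apart. In 22 of the 30 both IFN libraries lay below both controls, against 18.5% of all genes tested.

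Few markers of other cell types were called. Of 13 macrophage and osteoclast markers 9 were under 1 CPM in all 4 libraries, as were 8 of 10 B cell markers and 4 of 5 muscle markers, and no member of the macrophage, endothelial or adipocyte lists was called. Ctsk, the osteoclast protease cathepsin K, had 371 and 63.0 CPM in control and 482 and 450.4 CPM with IFN (log2 1.10 ± 0.58, adjusted p = 0.45), and passed against control replicate 2 alone (adjusted p = 0.00022). Plin2, a lipid droplet protein in the adipocyte list, had 605 and 958 CPM in control and 1109 and 1103 CPM with IFN (log2 0.50 ± 0.28, adjusted p = 0.477). In both genes the IFN libraries lay above both controls, as for 20.9% of all genes. Pax5, the B cell lineage transcription factor, rose, with 2 and 4 counts in control and 303 and 475 counts with IFN. Its level went from 0.0583 and 0.148 CPM to 8.63 and 13.7 CPM (log2 6.76 ± 0.57, adjusted p = 0.0005), and it was higher against each control library. The B cell genes Ms4a1, Blk and Cd22 had 0 counts in all 4 libraries, and Cd79a had 13 and 0 counts in control and 12 and 11 counts with IFN. Ebf1, a B cell factor also found in mesenchymal cells, lay at 16.6 and 47.1 CPM in control and 18.9 and 19.7 CPM with IFN. The summed level of the B cell list was 17.1 and 48.2 CPM in control and 28.0 and 34.0 CPM with IFN.

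The IFN effect at day 21 was set against that at day 14, which used 4 other libraries. At day 14, 396 genes (2.29%) were called, of which 224 (1.3%) rose and 172 (0.995%) fell. Of the genes that rose at day 21, 123 also rose at day 14, which is 84.8% of the day 21 list and 54.9% of the day 14 list. Of those that fell, 15 did so on both days, 55.6% of the day 21 list and 8.72% of the day 14 list. No gene was called in opposite directions.

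The test of the difference between the 2 effects called 0 genes (0.0%) by edgeR, with 1315 at an unadjusted p below 0.05 and a lowest adjusted p of 0.498. DESeq2 called 31. The signed log2 fold change was lower at day 21 in 43 of 49 antiviral effectors (median 3.08, against 3.63 at day 14). It was also lower in 13 of 17 GTPases (3.50 against 3.74) and 20 of 21 sensors (1.50 against 2.39). For MHC class I genes it was lower in 17 of 24 (1.41 against 1.55). Lower does not always mean a weaker rise. Among these 17 genes, Canx, Calr and Pdia3 had a negative value at day 21 and a positive one at day 14. Among the antiviral effectors, Isg20 and Ifi27 were negative on both days and larger in size at day 21. Among the receptors, kinases and transcription factors the log2 fold change was lower in 11 of 23 (0.28 against 0.05). No single difference passed. Irf7 had a log2 fold change of 5.43 at day 21 and 7.21 at day 14, and Ifitm1 2.52 and 0.60. Cxcl10, an interferon-induced chemokine chosen after its values were seen, gave 1.53 (adjusted p = 0.204) at day 21 and 5.14 (adjusted p = 0.000849) at day 14. For the collagens the medians were -1.07 and -1.51, and for Col1a1 the values were -2.65 and -2.27. The lowest adjusted p belonged to Maf, a transcription factor named for this reason after its values were seen, at 0.19 at day 21 and -1.40 at day 14.

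**Figure D5:**
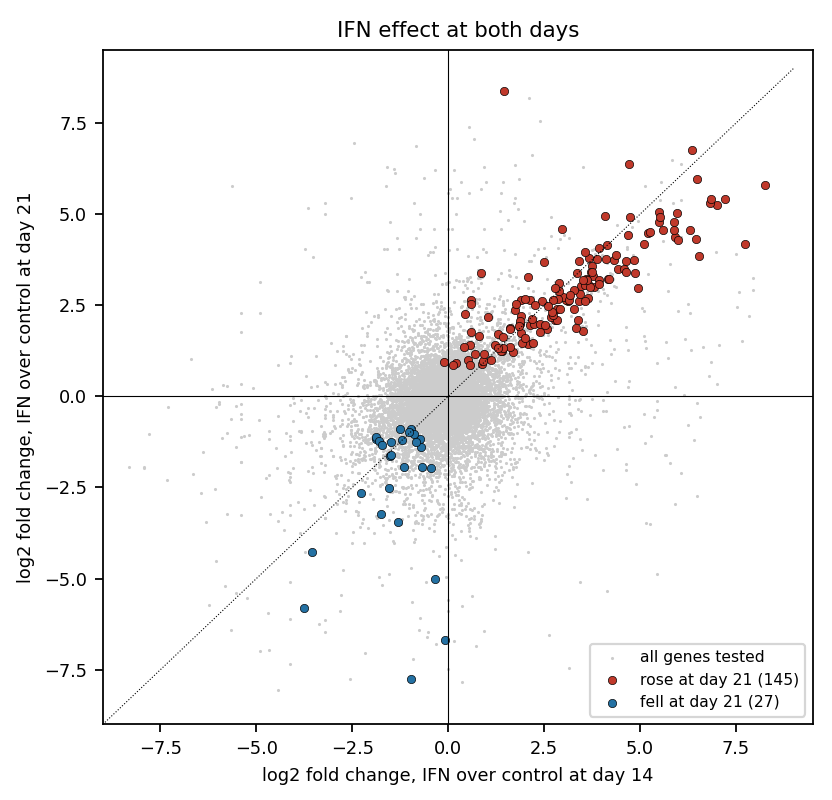
Each point is a gene, with the log2 fold change of IFN over control at day 14 on the x axis and at day 21 on the y axis, and the 145 genes that rose and 27 that fell at day 21 are coloured. Most coloured points above 0 lie under the dotted line of equal effect (94 of 145), and Hspa1a and Hspa1b lie at -7.74 and -6.68 at day 21 and at -0.96 and -0.09 at day 14.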

How the data were processed

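HISAT2, SAMtools, featureCounts and the build mm10 are named in the submitters' processing notes. Annotation, strand use and versions are not given in the sources used here. The authors deposited raw read counts per gene for all 12 libraries. Gene positions are those of GENCODE M21.

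The counts were fitted with edgeR 4.0.16 in R 4.3.3, by the robust quasi-likelihood F test on 6 group means with filterByExpr, TMM factors and 6 residual degrees of freedom. Comparisons with a single control library repeat that fit without the other one, on the same 17289 genes. Fold changes are log2 ± SE, and log2 CPM used a prior count of 2. The fits were tested on data simulated from group means, with the same spread for all libraries of a gene. That simulation held no outlying control library, so it does not test how the fits handle one. Alternatives included DESeq2 1.42.0 and limma 3.58.1.

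The members, the 34 gene lists and the rule for named genes were chosen with earlier results of these data known. The rule took 8 set genes (Sox9, Col1a1, Runx2, Bglap, Sp7, Alpl and both receptor genes), the 10 highest and 10 lowest called genes without overlap, the 10 highest and 10 lowest against the nearer control library, up to 5 genes per list, and the 10 highest and 10 lowest ratios between the control libraries. Not every such gene is described, and predicted genes were only counted. Of 754 listed symbols 752 matched the table, 6 by an older symbol, and 675 were tested. Some listed genes are not reported here.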

Additional observations from a re-analysis of the deposited data

How the results depend on the processing

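With 2 libraries a group, calls depend on how the spread is estimated and on the control library. The 172 genes called at day 21 became 635 with DESeq2, 1039 with no filter on low counts, 25 with only the groups compared and 850 without both outlying control libraries (replicate 1 of day 0 and replicate 2 of day 21); leaving out 1 library gave 59 (IFN day 21 replicate 1) to 3900 (control day 21 replicate 1), with 62 without IFN day 21 replicate 2, 106 without either IFN day 14 library and 179 without control day 21 replicate 2. The 27 lower calls became 284 with DESeq2, 596 with no filter, 0 with only the groups compared (25 higher), 329 without both outlying controls, 1 without either IFN day 21 library (58 and 61 higher) and 6 or 7 without an IFN library of day 14 or day 0. The day 21 minus day 14 difference, 0 genes, became 31 with DESeq2, 386 with no filter, 89 without both outlying controls and 0 to 2605 without 1 library, the latter without control day 21 replicate 1. Genes higher against each control apart, 98, became 240 with DESeq2, 213 with no filter, 950 with only the groups compared, 368 with limma voom library weights and 30 to 260 without 1 library (30 without IFN day 21 replicate 2, 260 without control day 0 replicate 1). Genes lower against each, 17, became 69, 88, 628 and 195 in that order, 10 where the change also had to reach 1 on the log2 scale, and 2 to 130 without 1 library (2 without IFN day 21 replicate 1, 130 without control day 0 replicate 2). These alternatives for the counts against each control were chosen after seeing the data. Causes were not tested.

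Replicate numbers did not pair the samples: deviations of same-numbered libraries correlated from -0.051 to 0.11 between groups. With the replicate number as a block, 147 genes were called at day 21, 0 for the difference between days, 88 higher and 11 lower against each control. Library size alone in place of TMM moved the median log2 fold change of all genes from -0.01 to 0.13, and called 163 higher and 21 lower.

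Of 101 named genes under 21 settings, 1742 of 2121 values kept direction and side of the threshold, 251 lost the call, 88 gained it and 40 in 20 genes changed sign. Leaving out 1 library, the log2 fold change ran from -0.61 to 0.20 for Ifnar1, -0.027 to 0.46 for Ifnar2, -1.52 to 0.23 for Alpl, -2.34 to 2.21 for Bglap, -4.55 to 0.19 for Hspa5, -4.03 to 0.061 for Hsp90b1, -4.22 to 0.093 for Dnajb1, -4.34 to 0.92 for Atf3, -3.97 to 0.98 for Hmox1, -0.75 to 5.02 for Fos, -2.17 to 0.10 for Hspa8, -1.45 to 1.68 for Ptgs2, -3.25 to 0.57 for Cxcl5, -1.96 to 0.17 for Lcn2, -0.54 to 0.038 for Csf1, -0.77 to 1.15 for Top2a, -0.26 to 0.60 for Ccnd1, -2.36 to 1.07 for Gdf15, -0.999 to 1.77 for Nr4a1 and -1.95 to 1.88 for Mmp3; the ends came from leaving out either day 21 control. Without both outlying controls the values of changed sign were -0.015 for Ifnar2, 0.24 for Alpl, 2.22 for Bglap, 0.20 for Hspa5, 0.073 for Hsp90b1, 0.10 for Dnajb1, 0.93 for Atf3, 0.99 for Hmox1, 0.11 for Hspa8, 1.69 for Ptgs2, 0.050 for Csf1, -0.24 for Ccnd1, 1.08 for Gdf15 and 1.78 for Nr4a1; with limma voom they were 0.19 for Bglap, 0.16 for Ptgs2, 0.14 for Top2a and 0.51 for Nr4a1, and with library size alone 0.087 for Nr4a1.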
